A study of Homo sapiens with 15 samples.

Results

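The S100 genes encode small calcium-binding proteins that work inside the cell as calcium sensors and, once released, as signals to neighbouring cells. A list of 10 symbols was followed here, and all 10 were found among the 26485 genes of the count tables: S100A8, S100A9, S100A2, S100A4, S100A6, S100A10, S100A11, S100A14, S100A16 and S100P. They were chosen by symbol, and the list was selected on the measured S100A8 counts, which were higher after knockdown of MondoA and after knockdown of MLX, so those S100A8 values are a description and carry no test. The other members and the gene lists used below were also chosen with earlier results of these data known. Their adjusted p-values therefore give no independent support. The tables list 21 S100 genes in all, and the other 11 serve as a comparison.

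The cells were PSN-1, an established human pancreatic ductal adenocarcinoma (PDAC) line. In the first experiment they were transfected for 72 h with siRNA of one of 3 kinds: siControl, a control; siMondoA, against MondoA, whose gene symbol is MLXIP; or siMLX, against its partner MLX. In the second experiment PSN-1 cells received DMSO or SBI-477, labelled as a MondoA inhibitor, for 72 h, at a dose that is not stated in the labels. Each of the 5 groups had 3 RNA-seq libraries, 15 in all, from one cell line, and the labels do not say whether the 3 came from separate cultures, so the spread between them may be technical. MondoA and MLX are transcription factors that bind DNA together and answer to sugar-phosphate levels. Levels are in CPM, counts scaled to library size, with the TMM correction for library composition, and a change is a log2 difference with its standard error (SE).

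S100 proteins carry a pair of EF hands, the loops that hold calcium, and mostly work as dimers. Calcium opens a surface that grips a partner such as an annexin or a myosin. S100A8 and S100A9 pair as calprotectin, a protein that neutrophils and monocytes hold in bulk and that epithelia make when inflamed; it withholds zinc and manganese from microbes and, outside the cell, signals through the receptors RAGE and TLR4. S100P, S100A4, S100A6 and S100A11 are well known from pancreatic and other carcinomas, where they are often abundant.

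Of the 10 genes, 9 lie on chromosome 1 over 1634 kb, the S100 cluster of its long arm, and S100P lies alone on chromosome 4. In the GENCODE 29 annotation of GRCh38, S100A8 occupies chr1:153390032-153391188 on the minus strand and S100A9 chr1:153357854-153361027 on the plus strand, with S100A12 between them. S100P occupies chr4:6693069-6697170 on the plus strand. RefSeq promoters (GRCh38.p14, 250 bases before to 50 after a start) were matched for 10 of 10 genes, 14 promoters in all. The promoters of the calprotectin pair and of S100P are shown because these 3 genes had the largest differences after MondoA knockdown. Capitals mark the match to TTGNNNAA, a short C/EBP-type motif, in S100A8 and S100A9, and to TGATGNAA, the mixed C/EBP-ATF motif that ATF4 is known to bind, in S100P; matches were sought on both strands.
S100A8, chr1:153391024-153391323, minus strand: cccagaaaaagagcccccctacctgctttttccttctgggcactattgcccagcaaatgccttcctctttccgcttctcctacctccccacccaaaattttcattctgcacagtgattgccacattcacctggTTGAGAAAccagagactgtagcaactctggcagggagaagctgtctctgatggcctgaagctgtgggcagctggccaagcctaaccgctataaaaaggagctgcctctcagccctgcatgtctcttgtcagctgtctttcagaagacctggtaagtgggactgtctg
S100A9, chr1:153357604-153357903, plus strand: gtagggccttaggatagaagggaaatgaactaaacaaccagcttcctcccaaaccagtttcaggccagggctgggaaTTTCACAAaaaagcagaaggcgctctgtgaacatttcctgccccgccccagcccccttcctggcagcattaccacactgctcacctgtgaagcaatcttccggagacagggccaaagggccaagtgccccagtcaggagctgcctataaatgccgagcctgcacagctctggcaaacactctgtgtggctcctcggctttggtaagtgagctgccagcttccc
S100P, chr4:6693628-6693927, plus strand: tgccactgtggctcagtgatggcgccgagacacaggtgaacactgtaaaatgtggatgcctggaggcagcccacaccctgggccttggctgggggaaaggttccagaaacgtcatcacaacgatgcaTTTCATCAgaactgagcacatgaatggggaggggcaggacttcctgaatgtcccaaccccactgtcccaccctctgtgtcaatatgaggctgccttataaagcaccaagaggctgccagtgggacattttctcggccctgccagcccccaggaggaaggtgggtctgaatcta
S100A8 has 3 listed starts close together, and the promoter of the middle one is given. The match begins 117 bases before the start in that S100A8 promoter, 173 before it in S100A9 and 123 before it in S100P. TTGNNNAA is common, since 33.4% of all 35116 promoters listed there hold it, and S100A6, S100A11 and S100A16 hold it too. TGATGNAA stands in 3.62% of all promoters and, among the members, in S100P only. The E-box CACGTG, the core of the element bound by MondoA and MLX, is in 7.26% of all promoters and in 0 of these 14. Of the other motifs searched, the AP-1 motif TGANTCA (7.71% of all promoters) was found in S100A2 and the NF-kB motif (5.91%) in S100A14. A match is only a run of letters in this window and says nothing about binding.

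The siRNA libraries held 11227343 to 14731691 counts and the drug libraries 23315440 to 30480362, so 3 counts, the upper limit that a count of 0 allows, corresponded to 0.204 to 0.267 CPM in the first and 0.0984 to 0.129 CPM in the second, counting error only. The targeted genes followed their labels in the siRNA experiment. MLXIP fell from 83.6, 65.8 and 88.7 CPM to 22.6, 23.4 and 15.7 CPM in siMondoA (log2 change -1.95 ± 0.17 SE, edgeR adjusted p = 0.000118), and MLX fell from 53.4, 58.8 and 53.0 CPM to 11.9, 7.15 and 7.70 CPM in siMLX (-2.63 ± 0.18, edgeR adjusted p = 8.21e-05). In siMLX the second library stood apart: a list of 20 ATF4-programme genes, the integrated stress response (ISR), lay a median 2.12 log2 units over its siControl mean there, against 0.16 and 0.28 in the first and the third. Epithelial markers were present (8 of 8, including KRT8 and KRT19), with summed levels of 1962 to 2914 CPM in siControl, 1683 to 2045 in siMondoA and 1970 to 2509 in siMLX. CDH1 was low, at 5.97 CPM on average in siControl. In siMondoA 1 of 8 rose (CDH1, 2.38 ± 0.37, edgeR adjusted p = 0.00215) and 2 fell (CLDN4 and MUC1). In siMLX 0 rose and 1 fell (CLDN4). Over all genes 14.2% rose and 12.9% fell in siMondoA, and 3.72% rose and 4.69% fell in siMLX.

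S100A9, the larger partner of calprotectin, rose after both knockdowns and more after that of MondoA. Its level was 14.9, 38.8 and 18.6 CPM in the 3 siControl libraries, 362, 335 and 370 in siMondoA and 105, 130 and 125 in siMLX. No library of one group reached into another. In bulk RNA, more cells holding a transcript and more of it per cell cannot be told apart. Group means were 24.1 ± 12.8 CPM (SD, n = 3) in siControl, 356 ± 18.3 in siMondoA and 120 ± 13.5 in siMLX. The log2 change was 3.88 ± 0.31 in siMondoA (edgeR adjusted p = 9.83e-05) and 2.31 ± 0.29 in siMLX (edgeR adjusted p = 0.00218). Set directly against each other, siMondoA exceeded siMLX by 1.57 ± 0.28 (edgeR adjusted p = 0.00647). Without any one library the change stayed between 3.64 and 4.40 in siMondoA and between 2.07 and 2.83 in siMLX, past the threshold of 0.05 each time, and without the second siMLX library it was 2.25 ± 0.30 (edgeR adjusted p = 0.00313).

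S100A8, the other partner, was close to absent in control cells. Its counts were 1, 2 and 2 in siControl (0.0889, 0.155 and 0.130 CPM), under the limit that a count of 0 allows. In siMondoA they were 181, 111 and 148 (14.1, 8.82 and 11.8 CPM) and in siMLX 26, 33 and 53 (2.30, 2.54 and 4.04 CPM). All siMLX libraries lay above all siControl libraries, and all siMondoA libraries above all siMLX libraries. Summed over the libraries, 440 counts against 5 gave a ratio of 89 for siMondoA (95% interval 37.9 to 276, counting error only), and 112 against 5 gave 23.2 for siMLX (9.65 to 72.8). Between the knockdowns, siMondoA exceeded siMLX by 1.96 ± 0.26 log2 units (edgeR adjusted p = 0.00205). Choosing the gene used the siMondoA and siMLX counts themselves, though not their difference, so this value is a description too. S100A8 passed the filter on low counts only through the knockdown libraries, so it had to differ from siControl among the genes tested.

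S100A9 remained the more abundant transcript of the pair, but the gap narrowed. There were 142 to 250 S100A9 counts for each S100A8 count in siControl, 25.6 to 38 in siMondoA and 31 to 51.1 in siMLX, where the siControl figures rest on 1 or 2 S100A8 counts. Of the summed CPM of the 10 genes, the pair took 0.555 to 1.69% in siControl, 4.81 to 7.14% in siMLX and 10.5 to 14.9% in siMondoA. Per kb of exon, which makes levels of different genes comparable, S100A9 was the sixth of the 10 in siControl (41.8 ± 22.3 CPM per kb) and the third in siMondoA (617), after S100A6 (863) and S100A11 (834).

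**Figure D1:**
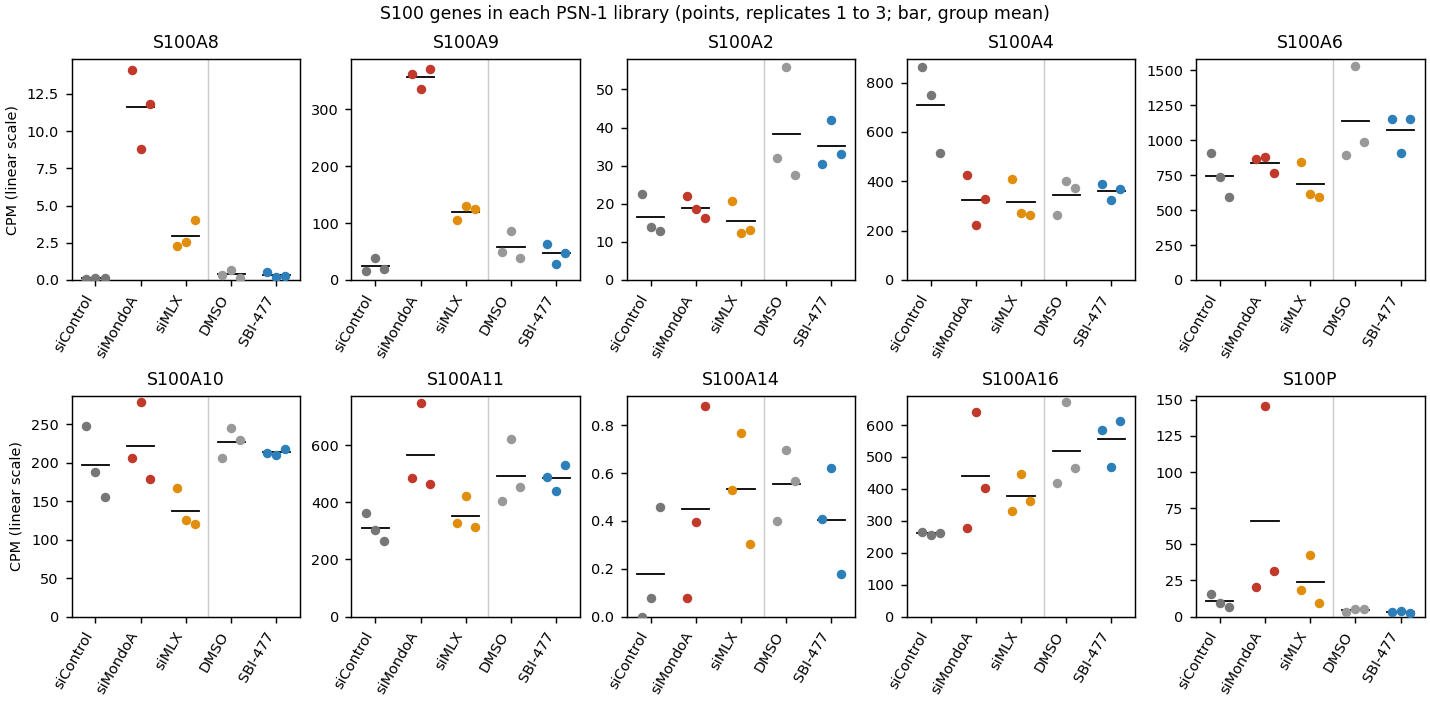
Levels of the 10 S100 genes in CPM on linear axes from 0, 1 panel per gene and 1 point per library (replicates 1 to 3 from left to right), with the group mean as a bar. S100A9 sits at 14.9 to 38.8 CPM in siControl and at 335 to 370 CPM in siMondoA, and S100A4 is lower in both knockdowns. With the libraries as labelled, the DMSO and SBI-477 points overlap for every gene. The labels of the second drug libraries are in question.

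Calprotectin is best known from myeloid cells, so their markers were read in the same libraries. Of 16 neutrophil and monocyte markers, 5 (FCGR3B, MPO, FCN1, AIF1 and TYROBP) were at 0 in all 15 libraries and 11 stayed under 10 counts in every library; PTPRC, the pan-leukocyte CD45 gene, never exceeded 2 counts. The summed level of the list was 57.4 to 70.8 CPM in siControl, 73.1 to 93.5 in siMondoA and 70.3 to 102 in siMLX, nearly all of it from CD14, LYZ and CD68. In siMondoA 1 of the 4 tested markers rose (CD68, a lysosomal protein, 1.06 ± 0.16, edgeR adjusted p = 0.00178) and 2 fell. In siMLX 0 of 4 passed the edgeR test. S100A8 and S100A9 are also made by squamous epithelium. Of 21 squamous markers, 4 (IVL, SPRR1A, SPRR1B and KRT1) were at 0 in all libraries and 12 stayed under 10 counts, and the summed level was 23.7 to 29.6 CPM in siControl, 45.2 to 72.8 in siMondoA and 41.7 to 50.5 in siMLX. Of the 5 squamous markers tested, 3 rose and 1 fell in siMondoA, and 3 rose in siMLX. PI3, the elastase inhibitor elafin, was among those that rose (2.43 ± 0.39 in siMondoA, edgeR adjusted p = 0.00262), and the keratin KRT4 fell (-3.91 ± 0.86, edgeR adjusted p = 0.0101). In siMLX the 3 were PI3 and the keratins KRT10 and KRT17. Over all genes tested, 14.2% rose and 12.9% fell in siMondoA, and 3.72% rose and 4.69% fell in siMLX. The part of squamous genes in the S100 results was not tested. Fibroblast markers, of which PSN-1 itself makes COL3A1 and LUM, summed to 568 to 718 CPM in siControl, 570 to 858 in siMondoA and 614 to 797 in siMLX; 1 rose and 2 fell of 8 tested in siMondoA, and 2 rose and 2 fell in siMLX.

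Cytokines known to induce the calprotectin genes in epithelia were read in the same libraries. IL1A, IL1B and IL6 were the 3 of 7 listed inducers with enough counts to test. All 3 rose in siMondoA and IL1A and IL6 rose in siMLX, beside 14.2% and 3.72% of all genes. IL1A averaged 2.28 ± 0.54 CPM in siControl, 90.3 ± 48.4 in siMondoA and 21.6 ± 25.5 in siMLX, with log2 changes of 5.31 ± 0.90 (edgeR adjusted p = 0.00316) and 3.26 ± 0.87 (edgeR adjusted p = 0.0456). IL6 averaged 11.6 ± 3.37, 187 ± 39.8 and 88.1 ± 109 CPM, with changes of 4.01 ± 0.78 (edgeR adjusted p = 0.00588) and 2.93 ± 0.75 (edgeR adjusted p = 0.0405). IL1B changed by 3.78 ± 0.74 in siMondoA (edgeR adjusted p = 0.00603). The SDs in siMLX exceed the means, with single libraries from 4.60 to 51.0 CPM for IL1A and from 24.3 to 214 CPM for IL6. The list was chosen with earlier results known, and the part of these cytokines in the S100 results was not tested.

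Among 13 tested transcription factors linked to S100 genes, 6 rose and 1 fell in siMondoA, and 2 rose in siMLX. Beside them, 14.2% of all genes rose and 12.9% fell in siMondoA, and 3.72% rose and 4.69% fell in siMLX. The median log2 change of these factors was 0.74 and 0.23, against 0.004 and 0.018 over all genes. The list was chosen with earlier results known, so nothing is read from these counts and medians. CEBPB, the C/EBP factor of myeloid and inflamed epithelial cells, went from 112 ± 3.33 CPM in siControl to 319 ± 56.0 in siMondoA (1.51 ± 0.22, edgeR adjusted p = 0.00161) and 193 ± 67.8 in siMLX (0.79 ± 0.21, edgeR adjusted p = 0.0482). FOSL1, an AP-1 subunit, rose by 2.01 ± 0.27 in siMondoA (edgeR adjusted p = 0.0012), and JUN by 1.71 ± 0.39 in siMLX (edgeR adjusted p = 0.0267). CTNNB1, beta-catenin, fell by 0.89 ± 0.16 in siMondoA (edgeR adjusted p = 0.00411).

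S100A4, the metastasis-linked member that binds non-muscle myosin, fell in both knockdowns. It stood at 864, 751 and 513 CPM in siControl, 427, 222 and 327 after siMondoA and 409, 273 and 265 after siMLX. Every knockdown library lay below every control library, while the 2 knockdowns overlapped. The log2 change was -1.13 ± 0.27 in siMondoA (edgeR adjusted p = 0.0132) and -1.17 ± 0.27 in siMLX (edgeR adjusted p = 0.0266), and the knockdowns differed by 0.04 ± 0.26 (edgeR adjusted p = 0.926). The calls depended on single libraries: without the first siControl library the edgeR adjusted p was 0.0538 in siMondoA, and in siMLX it was 0.0566 to 0.108 without siControl 1, siControl 2, siMLX 2 or siMLX 3. The span of S100A4 holds S100A3 on the same strand. Of the 1062 25-base words in S100A4 transcripts, 25 bases being the read length, 0 were shared with other genes. S100A3 changed by -0.65 ± 0.35 in siMondoA (edgeR adjusted p = 0.188).

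S100P, a secreted ligand of RAGE, rose in siMondoA with a wide spread. Its levels were 15.4, 9.61 and 6.59 CPM in siControl, 20.5, 146 and 31.2 after siMondoA and 18.6, 42.7 and 9.53 after siMLX. All siMondoA libraries lay above siControl, and the second library was the highest of each knockdown. The change in siMondoA was 2.66 ± 0.75 (edgeR adjusted p = 0.0263), and without siMondoA 2 it was 1.31 ± 0.53 (edgeR adjusted p = 0.116); leaving out siControl 1, 2 or 3 also ended the call, at 0.056, 0.091 and 0.0904. In siMLX the change was 1.18 ± 0.74 (edgeR adjusted p = 0.349), and 0.42 ± 0.74 without siMLX 2.

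S100A11, an annexin A1 partner, rose in siMondoA from 364, 305 and 263 CPM to 487, 750 and 465 CPM, and stood at 327, 421 and 314 CPM in siMLX. The siMondoA libraries lay above all the others, whereas siMLX overlapped siControl. Its change was 0.87 ± 0.20 in siMondoA (edgeR adjusted p = 0.0124; 0.0503 without siControl 2) and 0.19 ± 0.20 in siMLX (edgeR adjusted p = 0.601). The direct difference of 0.68 ± 0.20 between the knockdowns missed the threshold (edgeR adjusted p = 0.0501), and passed it with the replicate number as a block (edgeR adjusted p = 0.0155). S100A11 shares 12.5% of its 25-base words with the pseudogenes S100A11P1 and S100A11P2 and with AC006483.1, so its counts are less certain.

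S100A16, a broadly expressed member, had 266, 254 and 261 CPM in siControl, 279, 640 and 401 after siMondoA and 330, 445 and 362 after siMLX. Both knockdowns lay above the narrow control range. The change was 0.76 ± 0.25 in siMondoA (edgeR adjusted p = 0.0429) and 0.54 ± 0.25 in siMLX (edgeR adjusted p = 0.192). Its adjusted p was the highest among the members called in siMondoA, and the call was lost without any single library except siMondoA 1; without siMondoA 2 the change was 0.39 ± 0.17 (edgeR adjusted p = 0.143).

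Values of the ISR list are set beside the members here. Measured from the siControl mean, its median stood at 1.39, 2.81 and 2.21 log2 units in siMondoA 1, 2 and 3. All 20 genes rose in siMondoA, while 1 (CEBPB) rose in siMLX, beside 14.2% and 3.72% of all genes. S100P, S100A11 and S100A16 were highest in the second library of each knockdown, where the ISR list was highest too. Within siMondoA, S100A8, S100A9 and S100A4 were lowest in that second library, S100A9 by a small margin (335 CPM against 362 and 370). Within siMLX this order was not seen. There S100A9 was highest in the second library (130 CPM against 105 and 125), S100A8 was lowest in the first and S100A4 in the third. With the second library of both knockdowns left out, a setting added after the data were seen, S100A9 still changed by 3.91 ± 0.30 in siMondoA (edgeR adjusted p = 1.54e-05) and 2.24 ± 0.29 in siMLX (edgeR adjusted p = 0.00115). S100A11 changed by 0.60 ± 0.13 in siMondoA (edgeR adjusted p = 0.00562), S100P by 1.30 ± 0.33 (edgeR adjusted p = 0.0144) and S100A16 by 0.37 ± 0.14 (edgeR adjusted p = 0.0682). The part of the stress programme in these values was not tested.

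**Figure D2:**
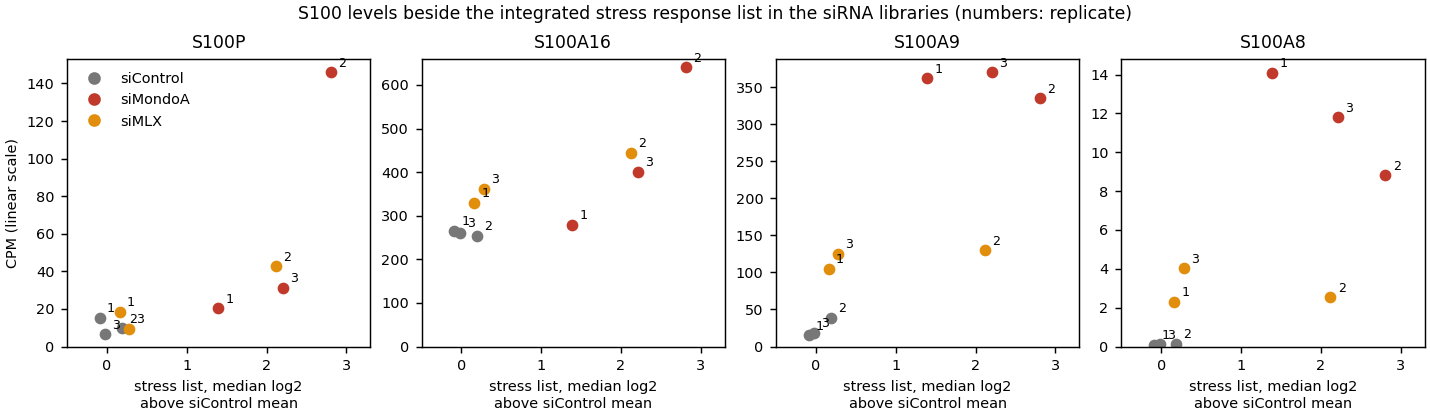
Levels of S100P, S100A16, S100A9 and S100A8 (CPM, linear axes) against the median log2 level of 20 ISR genes above the siControl mean, 1 point per siRNA library, coloured by group and numbered by replicate. The second siMLX library, at 2.12 on the horizontal axis, lies within the siMondoA range there, while its S100A9 level of 130 CPM lies with the other siMLX libraries.

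The remaining members did not pass the test in any siRNA comparison. S100A6, which binds the calcyclin-binding protein and was the most abundant per kb in siControl (770 ± 165 CPM per kb), had 912, 740 and 592 CPM in siControl, 866, 880 and 767 after siMondoA and 843, 615 and 597 after siMLX, and the groups overlapped. Its changes were 0.16 ± 0.18 (edgeR adjusted p = 0.507) and -0.13 ± 0.18 (edgeR adjusted p = 0.7). S100A10, the calcium-insensitive partner of annexin A2, had 248, 189 and 155 CPM in siControl, 206, 280 and 179 after siMondoA and 167, 125 and 120 after siMLX. It changed by 0.17 ± 0.21 in siMondoA (edgeR adjusted p = 0.578) and -0.52 ± 0.21 in siMLX (edgeR adjusted p = 0.148). Its difference of 0.69 ± 0.21 between the knockdowns (edgeR adjusted p = 0.0565) passed with the replicate block (edgeR adjusted p = 0.0168). S100A2, a member of squamous and basal epithelium, had 22.66, 14.03 and 12.98 CPM in siControl, 22.03, 18.68 and 16.33 after siMondoA and 20.8, 12.4 and 13.1 after siMLX, with changes of 0.21 ± 0.26 (edgeR adjusted p = 0.572) and -0.10 ± 0.26 (edgeR adjusted p = 0.848). S100A14, an epithelial member, was at 0 to 0.881 CPM (0 to 11 counts) in the 9 siRNA libraries and was left out by the filter there.

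Counted over the members, with S100A8 set aside, 4 of the other 8 tested rose in siMondoA (S100A9, S100A11, S100A16 and S100P) and 1 fell (S100A4). Of all 13001 genes tested, 27.2% were called there, 14.2% higher and 12.9% lower. In siMLX 1 of the 8 rose (S100A9) and 1 fell (S100A4), beside 8.41% of all genes, 3.72% higher and 4.69% lower. Both comparisons share the siControl libraries, and nothing is read from these counts since the list was drawn up from them. In siMondoA against siMLX 2 of 9 were higher (S100A9 and, as a description, S100A8) and 0 lower. Beside them 12.9% of all genes were called, 6.66% higher and 6.21% lower. Groups did not overlap for 47.2% of all genes in siMondoA against siControl, 33.4% in siMLX against siControl and 30.2% in siMondoA against siMLX. The authors' deposited table, whose siRNA log2 changes match a DESeq2 fit with the replicate number as a term, lists S100A10 (-0.51, adjusted p = 0.00332), S100A16 (0.53, 0.00415) and S100P (0.98, 0.018) under 0.05 for siMLX. For siMondoA the authors' deposited table gives S100P 2.2 (adjusted p = 0.0516). Over the 8 members tested other than S100A8 the median log2 change was 0.48 in siMondoA and 0.04 in siMLX.

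**Figure D3:**
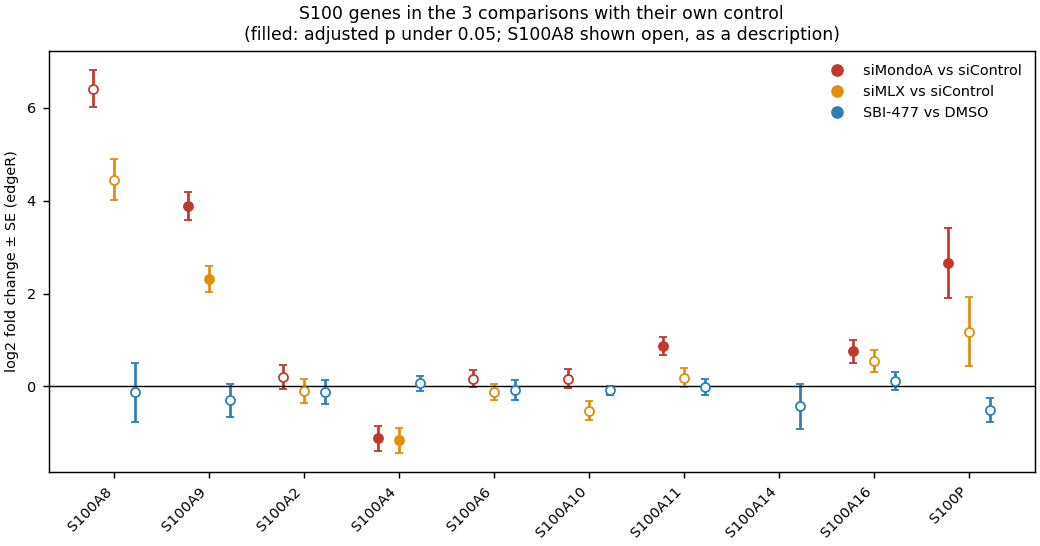
Log2 change of each S100 gene with its SE (bars) for siMondoA against siControl, siMLX against siControl and SBI-477 against DMSO, 3 libraries a group. Filled points passed an adjusted p of 0.05, and S100A8 is drawn open as a description. S100A9 stands at 3.88 and 2.31 after the knockdowns and at -0.30 after SBI-477, and S100A4 at -1.13, -1.17 and 0.06. The SBI-477 values use the libraries as labelled.

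Few of the other S100 genes could be tested. Of these 11 genes, 4 had 0 counts in all libraries, and S100A3 and S100A13 alone passed the filter of the siRNA experiment. S100A13, which helps export growth factors and interleukin-1 alpha, fell in siMondoA from 174 ± 20.1 to 118 ± 13.7 CPM (-0.56 ± 0.12, edgeR adjusted p = 0.0105) and changed by -0.29 ± 0.12 in siMLX (edgeR adjusted p = 0.173). Within 250 kb of the cluster on chromosome 1 lie 70 other protein-coding genes, of which 12 were tested. In siMondoA 0 of them rose and 3 fell: TDRKH (-0.71 ± 0.14, edgeR adjusted p = 0.00636), S100A13 and THEM4 (-0.56 ± 0.14, edgeR adjusted p = 0.0147). In siMLX 0 of the 12 passed the edgeR test. Beside these 12, 14.2% of all genes rose and 12.9% fell in siMondoA, and 3.72% rose and 4.69% fell in siMLX. The fused-type S100 genes of the same region, which encode skin barrier proteins such as filaggrin, were too low to test except FLG, which did not pass against siControl in either knockdown and was lower in siMondoA than in siMLX (-3.23 ± 0.84, edgeR adjusted p = 0.0314). Within the cluster, S100A9 rose and S100A4 fell in both knockdowns.

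**Figure D4:**
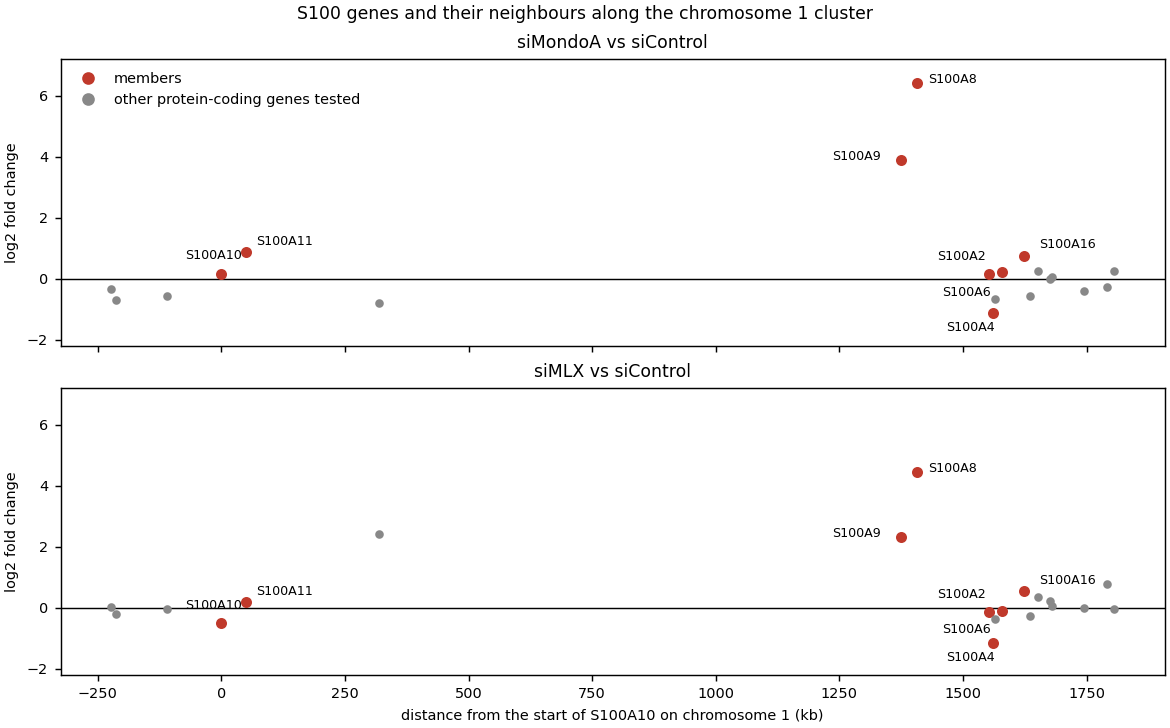
Log2 change against distance from the start of S100A10 on chromosome 1 in kb, for the members (red) and the other protein-coding genes tested (grey), in siMondoA (top) and siMLX (bottom) against siControl. S100A8 lies highest in both panels, and S100A4 lies below 0 in both. S100A9 is the next highest in siMondoA, whereas in siMLX the neighbour FLG (2.42) lies above S100A9 (2.31).

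Genes whose products meet S100 proteins changed in both directions. Of 13 intracellular partners, 5 rose and 0 fell in siMondoA (median 0.29), and 0 rose and 2 fell in siMLX (median 0.09). The shares of all genes were 14.2% higher and 12.9% lower in siMondoA, and 3.72% higher and 4.69% lower in siMLX. Nothing is read from the counts of the partner and receptor lists, which are short. ANXA2, the annexin held by S100A10, rose by 0.48 ± 0.13 (edgeR adjusted p = 0.0237). MYH9, the myosin heavy chain bound by S100A4, rose by 0.67 ± 0.15 (edgeR adjusted p = 0.0103), ezrin (EZR), a membrane linker bound by S100P, by 0.62 ± 0.17 (edgeR adjusted p = 0.0235), and DLC1, a RhoGAP, by 1.58 ± 0.38 (edgeR adjusted p = 0.0144). In siMLX, AHNAK, which joins the S100A10 and annexin A2 complex, fell by 0.50 ± 0.14 (edgeR adjusted p = 0.048), and the scaffold IQGAP1 fell by 0.49 ± 0.11 (edgeR adjusted p = 0.0226). Of 6 receptors of released S100 proteins, 0 rose and 2 fell in siMondoA: ALCAM (-0.82 ± 0.23, edgeR adjusted p = 0.025) and BSG, which encodes basigin (-0.46 ± 0.15, edgeR adjusted p = 0.0465). In siMLX NPTN, neuroplastin, fell by 0.85 ± 0.15 (edgeR adjusted p = 0.00984).

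The genes whose profile over the 9 siRNA libraries was most like that of S100A8 were, by Pearson correlation of log2 CPM over 12459 genes, CEP55 (r = 0.994), DNAJA4 (0.989), VPS4A (0.984), FAM219A (0.984) and S100A9 (0.981). These libraries share 3 groups, so a high r mostly reflects the order of the group means. CEP55, a protein of the last step of cell division, averaged 36.5, 75.8 and 58.3 CPM in siControl, siMondoA and siMLX, and DNAJA4, a co-chaperone, 18, 36.5 and 27.6 CPM. Both spanned far less than S100A9. Among the members, r with S100A8 was -0.78 for S100A4, 0.70 for S100A11, 0.63 for S100A16, 0.61 for S100P and 0.01 for S100A10.

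In the drug experiment the second libraries need care before any result. The authors' deposited table of SBI-477 against DMSO matched the counts only when DMSO 2 and SBI-477 2 were exchanged: the median difference in log2 change over 13086 genes was then 9.34e-08, against 0.196 with the columns as labelled and 0.117 to 0.335 for the other exchanges of 1 DMSO with 1 SBI-477 library. TXNIP and ARRDC4, known MondoA target genes, bear on the same libraries. TXNIP had 145, 39.2 and 204 CPM in the libraries labelled DMSO and 74.6, 121 and 41.5 CPM in those labelled SBI-477. ARRDC4 had 15.4, 7.26 and 18.8 CPM against 8.208, 13.02 and 5.443 CPM. For both genes the library labelled DMSO 2 lay below DMSO 1 and DMSO 3, the library labelled SBI-477 2 lay above SBI-477 1 and SBI-477 3, and the groups would not overlap with those 2 exchanged. No label records an exchange, so libraries are called by their labels, every direction below depends on them, and the fold changes are also given for replicates 1 and 3 alone.

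With the libraries as labelled, 0 of the 10 S100 genes passed the test for SBI-477. The edgeR adjusted p was 1 for all 10, as for all 14023 genes tested (0% called in either direction), 409 of which had an unadjusted p under 0.05 but no member among them; DESeq2 also called 0 members. The levels of the groups overlapped for all 10. Over all genes they did not overlap for 9.26%. With 10 members and a share that low, nothing is read from the absence of a member, here or among the 409. S100A9 had 48.2, 86.4 and 38.1 CPM in DMSO and 63.9, 28.3 and 47.4 in SBI-477, a change of -0.30 ± 0.36. S100A8 had 0.366, 0.652 and 0.126 CPM in DMSO and 0.513, 0.208 and 0.266 in SBI-477. Summed, S100A8 had 26 counts in SBI-477 against 30 in DMSO, a ratio of 0.953 (95% interval 0.541 to 1.67, counting error only). Replicates 1 and 3 alone, a value added after the data were seen, held 21 against 15 counts, a ratio of 1.58 (0.776 to 3.29).

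S100A4 had 262, 403 and 372 CPM in DMSO and 389, 326 and 370 in SBI-477 (0.06 ± 0.17). S100P had 3.29, 5.433 and 5.398 CPM in DMSO and 3.39, 3.74 and 2.70 in SBI-477; its change of -0.52 ± 0.26 had the smallest unadjusted p of the members (edgeR, 0.0828). In S100A6 (895, 1534 and 988 against 1154, 911 and 1150 CPM), S100A11 (404, 622 and 453 against 488, 439 and 532 CPM) and S100A16 (417, 671 and 464 against 584, 470 and 613 CPM) the library labelled DMSO 2 was the highest and the library labelled SBI-477 2 the lowest of its group. The changes were -0.09 ± 0.21, -0.02 ± 0.17 and 0.10 ± 0.19. S100A10 changed by -0.09 ± 0.10, S100A2 by -0.12 ± 0.26 and S100A14 by -0.43 ± 0.48.

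Replicates 1 and 3 alone gave other values, and 2575 of all genes were then called, against 0 of 14023 tested with all libraries. Calls were thus common in this setting, and nothing is read from the number of members called. S100A16 passed the test (0.44 ± 0.09, edgeR adjusted p = 0.0113), and S100A6 narrowly missed it (0.29 ± 0.09, edgeR adjusted p = 0.0519). S100A11 changed by 0.25 ± 0.09 (edgeR adjusted p = 0.0871), S100A9 by 0.37 ± 0.15 (edgeR adjusted p = 0.114) and S100P by -0.51 ± 0.28 (edgeR adjusted p = 0.227). S100A8 changed by 0.71 ± 0.63 (edgeR adjusted p = 0.457), S100A4 by 0.26 ± 0.14 (edgeR adjusted p = 0.222), S100A2 by 0.10 ± 0.11, S100A10 by -0.02 ± 0.09 and S100A14 by -0.66 ± 0.53. For S100A9, S100A8, S100A2, S100A6 and S100A11 the sign thus turned from lower to higher, short of the threshold in both settings. The authors' deposited table gives S100A9 a log2 change of 0.80 (adjusted p = 0.00192), S100A16 0.48 (7.06e-05), S100A6 0.47 (0.00277) and S100A11 0.35 (0.0157). Of the rest, S100A8 has 1.04 in the authors' deposited table (adjusted p = 0.315), S100A4 0.29 (0.0974) and S100P -0.10 (0.843).

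The inhibitor and the knockdown were compared by an interaction term, the SBI-477 effect minus the siMondoA effect. Of the 8 members tested other than S100A8, 1 was higher (S100A4) and 2 lower (S100A9 and S100P), beside 7.67% of all 13681 genes, 3.84% higher and 3.83% lower. For S100A9 the effects of -0.30 and 3.88 differed by -4.17 ± 0.51 (edgeR adjusted p = 0.000853), and by -3.49 ± 0.42 with replicates 1 and 3 of the drug experiment alone (edgeR adjusted p = 0.00158). For S100A4 the difference was 1.21 ± 0.35 (edgeR adjusted p = 0.0477) and for S100P -3.15 ± 0.92 (edgeR adjusted p = 0.0478). Leaving out 1 library ended the S100A4 call in 9 of 12 fits and the S100P call in 11 of 12, and with replicates 1 and 3 alone S100P missed the threshold (edgeR adjusted p = 0.0827) and S100A4 stood at 1.41 ± 0.40 (edgeR adjusted p = 0.0402). S100A11 (-0.87 ± 0.29, edgeR adjusted p = 0.0716) and S100A16 (-0.64 ± 0.34, edgeR adjusted p = 0.26) did not pass, nor did they with replicates 1 and 3 alone (edgeR adjusted p = 0.185 and 0.602). The experiments differ in their controls and in depth as well as in the agent.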

How the data were processed

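The labels describe RNA extracted from PSN-1 cells and paired-end reads of 25 bases. Per the submitters' processing notes, edgeR, HTSeq 0.6.1, TopHat2 2.1.0 and bcl2fastq 1.8.4 were used, and the builds hg38 and mm10 are named; the strand setting and the annotation are not given in the sources used here. The authors deposited raw counts per gene for 26485 genes in 2 tables (siRNA and drug), beside their own log2 fold changes and p-values, of which no more than the printed values was used, per the file headers.

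The counts were analysed with edgeR 4.0.16 in R 4.3.3: filterByExpr, TMM scaling, and the quasi-likelihood test with Benjamini-Hochberg adjustment over all genes tested, called at 0.05. The 9 siRNA libraries shared 1 fit, the 6 drug libraries another, and all 15 the interaction. SEs are the log2 change divided by the square root of F; log2 CPM used a prior count of 2. CPM was scaled within each experiment, so levels are compared within an experiment only. Counting intervals are exact, at 95%. Alternatives were DESeq2 1.42.0, other size factors, no filter, the replicate number as a block, only the libraries compared, drug replicates 1 and 3 only, and each library left out. Library totals and the precision they give stand in the results. The scripts were tested on simulated data. Replicates of a group correlated at 0.968 to 0.995, and none agreed within sampling noise.

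The main fits treated the libraries as unpaired, and the replicate number entered as a block only among the alternatives. Same-numbered libraries of siMLX and siControl deviated together from their group means (r = 0.27, 0.19 and 0.36). For siMondoA and siControl r was 0.14, 0.09 and 0.01, and for siMondoA and siMLX 0.53, 0.45 and -0.11. For DMSO and SBI-477 it was -0.24, -0.56 and -0.45. The authors' siRNA changes matched a fit with the replicate number for both knockdowns.

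The members and the gene lists were chosen with earlier results of these data known. One gene was taken out of the partner and transcription factor lists afterwards and is not reported here. Named genes are all 10 members, up to 4 called genes with the smallest adjusted p from each other list and comparison, the other S100 genes that passed the filter, up to 4 called neighbours within 250 kb, and the 5 genes most like S100A8 among those averaging at least 1 CPM. Genes outside this rule that are named (MLXIP, MLX, TXNIP, ARRDC4, S100A12 and single marker genes) serve to check labels, cell types or position. Positions and exon lengths come from GENCODE 29 (GRCh38) and promoters from RefSeq (GRCh38.p14). Figures were drawn with matplotlib 3.10.9.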

Additional observations from a re-analysis of the deposited data

Results flagged for a closer look

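The response of 3 S100 genes to SBI-477 differed from their response to MondoA knockdown by a test of the difference itself, the interaction term over all 15 libraries. For S100A9 the SBI-477 effect minus the siMondoA effect was -4.17 log2 units (edgeR adjusted p = 0.000853), and this held in all 12 fits that left out 1 library. For S100A4 it was 1.21 (edgeR adjusted p = 0.0477), and for S100P -3.15 (edgeR adjusted p = 0.0478); most fits that left out 1 library ended these calls. The label question over the second drug libraries touches all 3.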

How the results depend on the processing

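Counts of members past an adjusted p of 0.05 leave out S100A8 where its contrast chose the list. With 1 library left out at a time, 2 to 5 were called in siMondoA against siControl (5 with all libraries), 1 to 2 in siMLX against siControl (2), 2 to 3 in siMondoA against siMLX (2), 0 to 0 in SBI-477 against DMSO (0) and 1 to 4 in the interaction (3). The counts for siMondoA against siMLX include S100A8, which is a description there and not a test. S100A9 kept its call in every such fit of the comparisons with siControl. For siMondoA against siMLX, DESeq2, no filter on low counts and the replicate block each called 4 in place of 2, S100A8 included, adding S100A10 and S100A11. Shares of all genes called are given above for the main fits only, so nothing is read from the member counts of the other settings. The replicate block left the counts at 5 in siMondoA, 2 in siMLX, 0 for SBI-477 and 3 in the interaction, and changed no other member's call. With drug replicates 1 and 3 only, 1 member was called in place of 0, in a setting where calls were common over all genes. Nothing is read from that count. No value changed sign past the threshold. Over single members and settings, 532 stayed on their side of the threshold, of which 32 uncalled values had another sign; 37 lost a call, 15 gained one and 2 untested values moved. With the 6 libraries of siMLX and siControl alone, S100A16 also passed (0.53 ± 0.12, edgeR adjusted p = 0.0344). In the siRNA experiment S100A14 could be tested only without the filter (1.15 ± 0.90 in siMondoA and 1.39 ± 0.88 in siMLX, edgeR adjusted p = 0.428 and 0.433). Depth limits S100A8 in siControl, at 1 or 2 counts per library, and S100A14 in the siRNA libraries, at 0 to 11.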
